A study of Mus musculus with 4 samples.

Results

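The ribosomal proteins build the large (60S) and the small (40S) subunit of the cytoplasmic ribosome. Here they are the 49 probe sets of 35 genes whose only platform gene symbol is that of an Rpl or Rps protein, Rplp0 or Rpsa, with the Rps6k kinases left out, among 12422 probe sets and 8251 named genes of the table. Counted by symbol alone, the large subunit is represented by 22 probe sets of 17 genes and the small subunit by 27 probe sets of 18 genes. Total liver RNA was measured on 4 Affymetrix MG_U74Av2 arrays, 2 for PEPCK-TAg mice and 2 for wild-type (WT) mice. PEPCK-TAg mice carry a transgene for the SV40 large T and small t oncoproteins under the promoter of the PEPCK gene, which is active in liver and also in some other tissues. WT mice are non-transgenic. All animals were male B6SJL hybrids aged 50 to 66 days that had eaten a diet of 65% protein and 10% carbohydrate freely for 4 weeks after weaning. The series calls the arrays of a group duplicate measurements and does not state whether different animals gave the RNA. A p-value here therefore measures only how far these arrays spread, which may be technical.

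Ribosomal protein genes are among the most actively transcribed genes of any growing cell, and their products are made in matched amounts because each subunit needs 1 copy of most of them. Their mRNAs are classical 5′ TOP transcripts, which begin with a tract of pyrimidines and whose translation is controlled by the kinase mTOR, while MYC drives transcription of many of them together with the factors that assemble ribosomes. In the liver the ribosome load serves both the secretion of plasma proteins and cell growth. Large T inactivates the RB family and p53, and the target of small t is the phosphatase PP2A. The comparison asked how these mRNAs stood in PEPCK-TAg liver relative to WT liver.

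The windows at the annotated transcription starts of 8 members are shown because they include both members called higher, Rps19 and Rpl13a, those next to them below the threshold and, with Rpl6, Rplp0 and Rpl41, some with differences near 0. Members with lower readings are not among them. Each window runs from 70 bases before the start through 30 bases of the transcript, 5′ to 3′ on the coding strand, from RefSeq (GRCm38.p6), and is the most upstream of those listed for the gene. Capitals mark the longest run of C and T that reaches within 20 bases of the start.
Rps19, chr7:24884522-24884621 (+): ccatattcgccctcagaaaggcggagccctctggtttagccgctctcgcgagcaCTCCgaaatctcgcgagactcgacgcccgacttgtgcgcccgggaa
Rpl13a, chr7:45128716-45128815 (-): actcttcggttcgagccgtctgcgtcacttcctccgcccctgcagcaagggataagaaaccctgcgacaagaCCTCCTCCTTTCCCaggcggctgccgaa
Rpl10a, chr17:28328401-28328500 (+): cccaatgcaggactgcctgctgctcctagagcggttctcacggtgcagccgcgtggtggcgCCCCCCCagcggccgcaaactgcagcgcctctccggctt
Rps18, chr17:33955636-33955735 (-): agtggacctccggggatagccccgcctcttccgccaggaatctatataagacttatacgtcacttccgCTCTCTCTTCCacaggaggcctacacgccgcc
Rps4x, chrX:102189362-102189461 (-): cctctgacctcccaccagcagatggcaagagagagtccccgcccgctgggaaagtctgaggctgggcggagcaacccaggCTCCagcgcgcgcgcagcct
Rpl6, chr5:121204431-121204530 (+): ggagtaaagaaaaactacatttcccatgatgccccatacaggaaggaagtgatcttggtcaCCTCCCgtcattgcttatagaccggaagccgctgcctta
Rplp0, chr5:115559397-115559496 (+): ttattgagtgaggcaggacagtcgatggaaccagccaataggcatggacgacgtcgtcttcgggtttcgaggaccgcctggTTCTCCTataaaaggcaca
Rpl41, chr10:128549139-128549238 (-): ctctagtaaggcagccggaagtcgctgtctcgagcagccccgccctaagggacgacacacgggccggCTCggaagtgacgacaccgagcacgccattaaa

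The marked run was 14 bases long in Rpl13a and 11 in Rps18, against 3 in Rpl41 and 4 in Rps19 and Rps4x, so its length did not follow the order of the differences in these 8 windows. RefSeq lists 37 windows of 300 bases for 28 of the 35 genes, so some genes are counted more than once. A run of at least 8 pyrimidines reached within 20 bases of the start in 37.8% of these windows. The share was 21.0% in the 32851 windows of all genes. The letters ACTTCCG, a core that ETS family factors are known to bind, occurred on either strand in 24.3% of the members' windows and in 6.42% of all windows. CACGTG, the E-box that MYC is known to bind, occurred in 10.8% against 7.15%, and TATAAA in 10.8% against 13.6%, again on either strand. Rpl13a held CACGTG within its 300 bases, and of the 3 windows listed for Rps19 only 1 did, not the one printed. The median GC content was 57.7% in the members' windows and 52.7% in all windows, and its part in these shares was not tested. The matches describe the letters only, and annotated starts can lie some bases away from the true ones.

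Among the ribosomal proteins, Rps19 and Rpl13a were called higher in PEPCK-TAg liver and no member was called lower. These 2 calls were read from 34 probe sets of 27 genes that had a signal above 41.3 on at least 2 of the 4 arrays, and the other 15 probe sets were too dim to be tested. Counted as higher, 5.88% of the tested members passed an adjusted p of 0.05, beside 9.1% of all 7877 probe sets tested, and as lower 0% passed, beside 3.4%. With so few calls these shares are not a result about the members. At an unadjusted p of 0.05, 6 member probe sets were higher (17.6%, beside 19.4% of all tested) and 1 lower (2.94%, beside 11%). Among all probe sets tested, 717 were called higher and 268 lower, and with arrays scaled to a common median 528 and 532.

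Rps19 encodes a 40S protein needed for the maturation of the small subunit, and loss of 1 of its alleles in humans causes Diamond-Blackfan anaemia. Its probe set gave signals of 2713 (PEPCK-TAg 1) and 3470 (PEPCK-TAg 2), against 957.2 and 556.2 on WT arrays. Both PEPCK-TAg arrays lay above both WT arrays. The difference was 4.20-fold, or 2.07 ± 0.32 (SE) on the log2 scale, with a limma adjusted p of 0.00974 (n = 2 arrays in each group throughout). The pair of arrays that shared a scan day, PEPCK-TAg 1 and WT 1, gave a log2 difference of 1.5, and the other pair gave 2.64.

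Rpl13a encodes a 60S protein that, in human monocytes, can leave the ribosome and hold back the translation of inflammatory mRNAs. Its probe set read 795.6 and 737.6 on PEPCK-TAg arrays, against 288.3 and 159.8 on WT arrays. The groups again did not overlap, and the PEPCK-TAg arrays lay closer together than the WT arrays. The difference was 3.57-fold, or 1.83 ± 0.33 (SE) on the log2 scale, with a limma adjusted p of 0.0168. In the pair of 1 scan day it was 1.47.

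Both calls were lost when either PEPCK-TAg array was left out and held without either WT array, where the lone array of a group was assumed to vary like the other group. Without PEPCK-TAg 1 the limma adjusted p was 0.0641 for Rps19 and 0.132 for Rpl13a, and without PEPCK-TAg 2 it was 0.0971 and 0.119, with log2 differences of 1.78 to 2.25 in these fits. With no filter on the signal it was 0.138 and 0.156. When the fluidics station was a block, which sets PEPCK-TAg 2 apart, no probe set of the table passed in limma and 2 members were higher and 1 lower at an unadjusted p of 0.05.

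**Figure D1:**
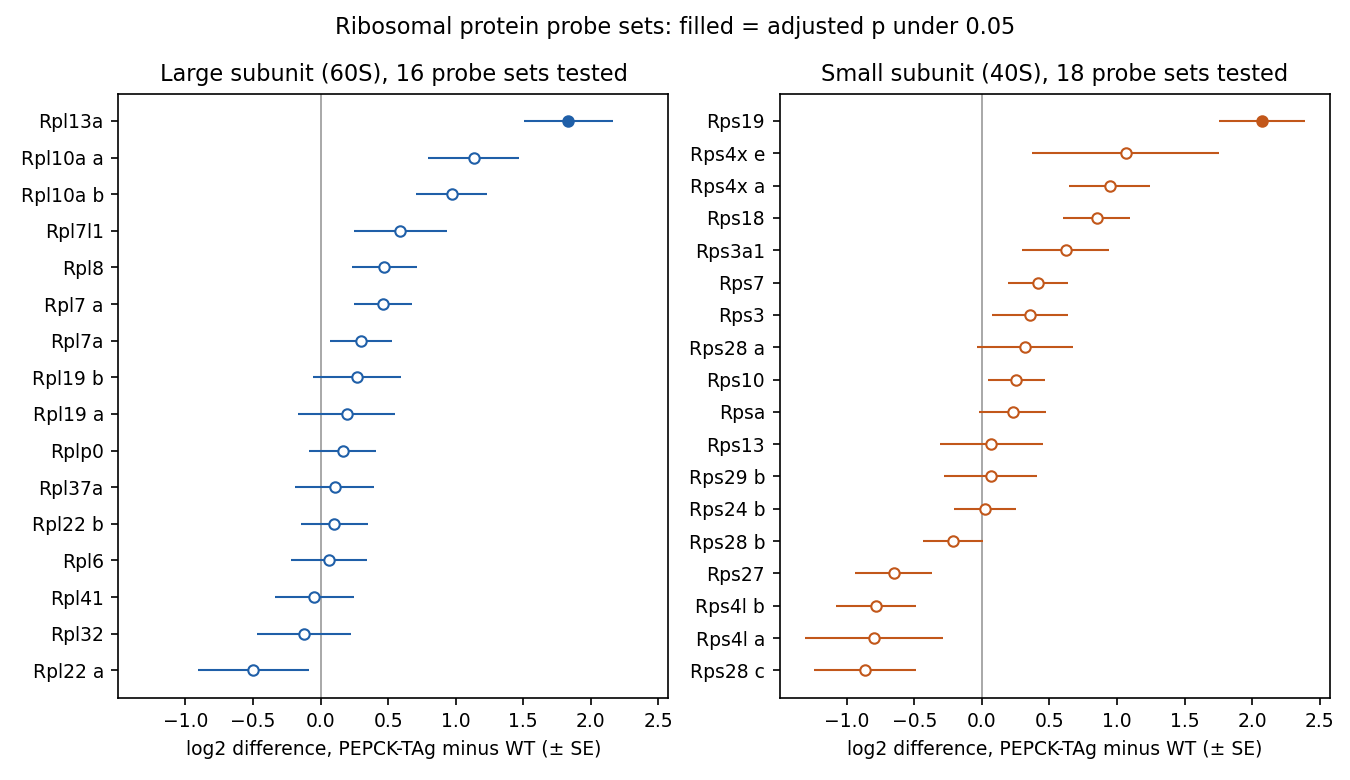
Log2 difference, PEPCK-TAg minus WT, of the 34 tested ribosomal protein probe sets (points, with bars of ± 1 SE from limma), for the 16 of the large subunit on the left and the 18 of the small subunit on the right. Letters a to e number the probe sets of a gene that has several, in the order of their identifiers. Filled points, Rpl13a and Rps19 only, passed an adjusted p of 0.05.

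Below the threshold stood a small group of members whose PEPCK-TAg arrays were both above their WT arrays. Rpl10a, a 60S protein of the mobile L1 stalk, had 2 probe sets with this order. The unsuffixed one read 1023 and 1916 on PEPCK-TAg arrays, against 582.9 and 698.7 on WT arrays (log2 difference 1.13 ± 0.34 SE, limma adjusted p = 0.0771). The other, which Affymetrix marks as shared within a family, read 1642 and 2074 on PEPCK-TAg arrays, against 1094 and 810.6 on WT arrays (0.97 ± 0.26 SE, limma adjusted p = 0.0589). The log2 differences given by the 2 probe sets lay 0.16 apart.

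Rps18, a protein of the head of the small subunit, read 3507 and 4865 on PEPCK-TAg arrays, against 2346 and 2239 on WT arrays. The log2 difference was 0.85 ± 0.25 SE (limma adjusted p = 0.0719). Rps4x, the X-linked form of a small-subunit protein, read 3864 and 4473 on PEPCK-TAg arrays, against 1655 and 2820 on WT arrays in its main probe set (0.95 ± 0.30 SE, limma adjusted p = 0.0926). For both genes the lower PEPCK-TAg array stood above the higher WT array, and neither passed the threshold. Rps3a1, another small-subunit protein, had 3622 and 4866 on PEPCK-TAg arrays and 2077 and 3581 on WT arrays, a gap between the groups that was narrow beside the spread within WT (0.62 ± 0.32 SE, limma adjusted p = 0.247).

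Several members counted with the large subunit by their symbol gave smaller differences with no overlap. Rpl7 sits among the expansion segments of the large subunit's RNA. Its tested probe set, with suffix s, read 4404 and 4916 on PEPCK-TAg arrays and 3282 and 3476 on WT arrays (log2 difference 0.46 ± 0.21 SE, limma adjusted p = 0.2). The assignment of this probe set is uncertain, as described with Rps24 below. The unsuffixed Rpl7 probe set read at most 10.8 and was not tested. Rpl8, which lies close to the peptidyl transferase centre, read 3944 and 5187 on PEPCK-TAg arrays and 3079 and 3450 on WT arrays (0.47 ± 0.24 SE, limma adjusted p = 0.237). Rpl7a and Rpl7l1, a paralog of Rpl7, also kept the order, with log2 differences of 0.30 ± 0.23 and 0.59 ± 0.35 SE. On the small subunit Rps7 and Rps10 did so, with 0.42 ± 0.22 and 0.25 ± 0.21 SE. None of these 6 genes passed the test.

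In all, both PEPCK-TAg arrays lay above both WT arrays in 13 of the 34 tested member probe sets, or 38.2%, beside 33.3% of all probe sets tested. The reverse order held in 5, or 14.7%, beside 26.5%. By subunit the first order held in 7 of 16 large-subunit and 6 of 18 small-subunit probe sets, and the reverse order in 0 of 16 and 5 of 18. The difference between the subunits was not tested, and the probe sets of a gene share 1 mRNA.

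**Figure D2:**
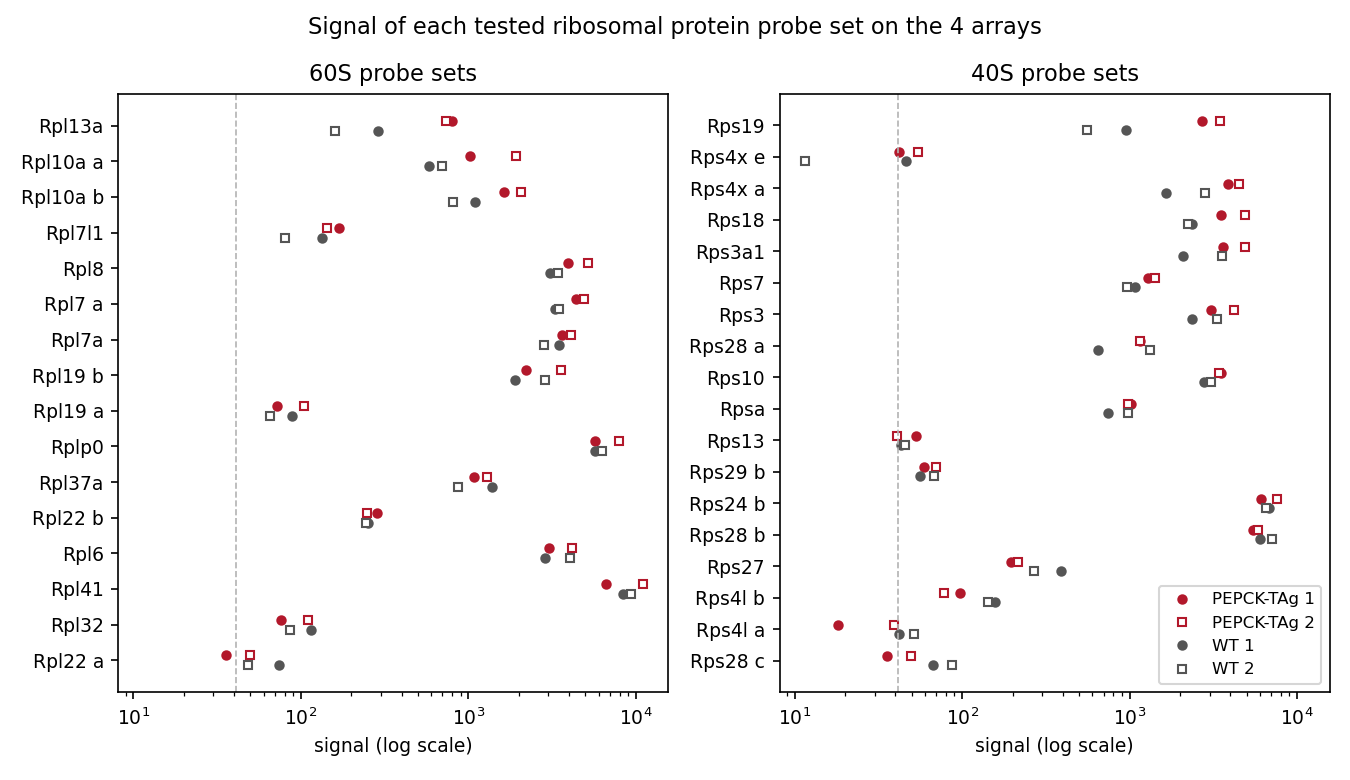
Signal (log scale) of each tested ribosomal protein probe set on each of the 4 arrays, PEPCK-TAg in red above WT in grey in each row, ordered by the difference, with replicate 1 as a circle and replicate 2 as an open square. The dashed line marks the signal of 41.3 used to choose what was tested. The PEPCK-TAg points of Rps19 (2713 and 3470) stand clear of its WT points (957.2 and 556.2), while the points of Rpl41, Rpl6 and Rpl37a interleave.

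Other members showed no difference that could be told from the spread between arrays. Rplp0, the base of the stalk that recruits elongation factors, read 5671 and 7950 on PEPCK-TAg arrays and 5693 and 6316 on WT arrays, and the groups overlapped. Its log2 difference was 0.16 ± 0.25 SE, with a 95% interval of -0.44 to 0.76. Rpsa, a small-subunit protein also known as a laminin receptor precursor, read 1013 and 982.4 on PEPCK-TAg arrays and 739.0 and 982.6 on WT arrays (0.23, interval -0.36 to 0.81). Rpl41, the smallest ribosomal protein, was read only by a probe set marked as shared within a family. There PEPCK-TAg 1 was the lowest of the 4 arrays at 6683 and PEPCK-TAg 2 the highest at 11106. WT arrays read 8416 and 9413 (-0.05, interval -0.75 to 0.65).

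Rpl6 of the large subunit gave 0.06 with an interval of -0.61 to 0.73, Rpl37a 0.10 with -0.59 to 0.80, and Rps3, a small-subunit protein at the mRNA entry channel, 0.36 with -0.31 to 1.03. Rpl32 and Rps13, each read by 1 probe set picked under relaxed rules (suffix r), gave -0.12 and 0.07. The 95% interval held 0 in 27 of the 34 tested probe sets and stayed within 1 log2 unit of 0 in 15. In the other 19 at least part of the interval lay beyond that size.

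Both PEPCK-TAg arrays lay below both WT arrays in tested probe sets of 3 small-subunit genes, none of which passed the test. Rps27, a zinc finger protein, read 195.8 and 216.4 on PEPCK-TAg arrays, against 386.9 and 270.3 on WT arrays (log2 difference -0.65 ± 0.28 SE, limma adjusted p = 0.179). Rps4l, a relative of Rps4x, had 2 tested probe sets. The one with suffix s read 97.3 and 78.0 on PEPCK-TAg arrays, against 156.9 and 143.6 on WT arrays (-0.79 ± 0.30 SE, limma adjusted p = 0.132), and the unsuffixed one gave -0.80 ± 0.51 SE (limma adjusted p = 0.335). The unsuffixed one passed the signal filter only through its WT arrays, and its difference was -1.36 to -0.24 with an array left out and -0.17 with the floor at the 40th percentile. Rps4x and Rps4l therefore stood on opposite sides of 0, a contrast between 2 genes that was not tested. Rps28 is described next, since its probe sets disagreed.

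More than 1 probe set was present for 10 of the genes, and 6 of these had at least 2 that were tested. In 4 of the 6 the tested probe sets had 1 sign (Rpl10a, Rpl19, Rps4l and Rps4x), and in 2 they did not (Rpl22 and Rps28). Rps28, a small protein near the mRNA exit, had 3 tested probe sets. The unsuffixed one read 1149 and 1159 on PEPCK-TAg arrays and 648.4 and 1320 on WT arrays, so the groups overlapped (0.32 ± 0.36 SE). The one marked as shared within a family read 5463 and 5846 on PEPCK-TAg arrays and 6031 and 7127 on WT arrays (-0.21 ± 0.22 SE). The one with suffix r read 35.7 and 49.2 on PEPCK-TAg arrays and 66.9 and 87.3 on WT arrays (-0.87 ± 0.38 SE, limma adjusted p = 0.179). These 3 readings of 1 gene spanned 1.19 on the log2 scale, more than all but the 2 called members differed between the groups.

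Rpl22, a 60S protein that mouse T cells need for their development, gave 0.10 ± 0.25 SE in a probe set that read 286.3 and 249.1 on PEPCK-TAg arrays and 251.8 and 245.6 on WT arrays. Its other probe set read 36.0 and 50.0 on PEPCK-TAg arrays and 73.9 and 48.5 on WT arrays (-0.50 ± 0.41 SE). Rpl19, which helps to bridge the subunits, gave 0.27 ± 0.33 and 0.19 ± 0.36 SE, and the groups overlapped in both probe sets. Rps4x had 5 probe sets, of which 3 were too dim to be tested. The other tested one, with suffix r, read 42.2 and 54.9 on PEPCK-TAg arrays and 46.0 and 11.5 on WT arrays, so its log2 difference of 1.06 ± 0.69 SE depended on WT 2 and was 0.06 without it.

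Rps24 and Rpl7 could not be assigned with confidence. The tested probe set of Rps24 read 6047 and 7583 on PEPCK-TAg arrays and 6812 and 6519 on WT arrays (0.02 ± 0.23 SE). The platform table derives this probe set and the tested one of Rpl7 from 1 and the same source record, although it names them for different genes. The other Rps24 probe set read 19.3 and 32.6 on PEPCK-TAg arrays and 32.0 and 40.7 on WT arrays and was not tested. Rps29, likewise with 1 tested probe set of 2, gave 0.06 ± 0.34 SE.

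**Figure D3:**
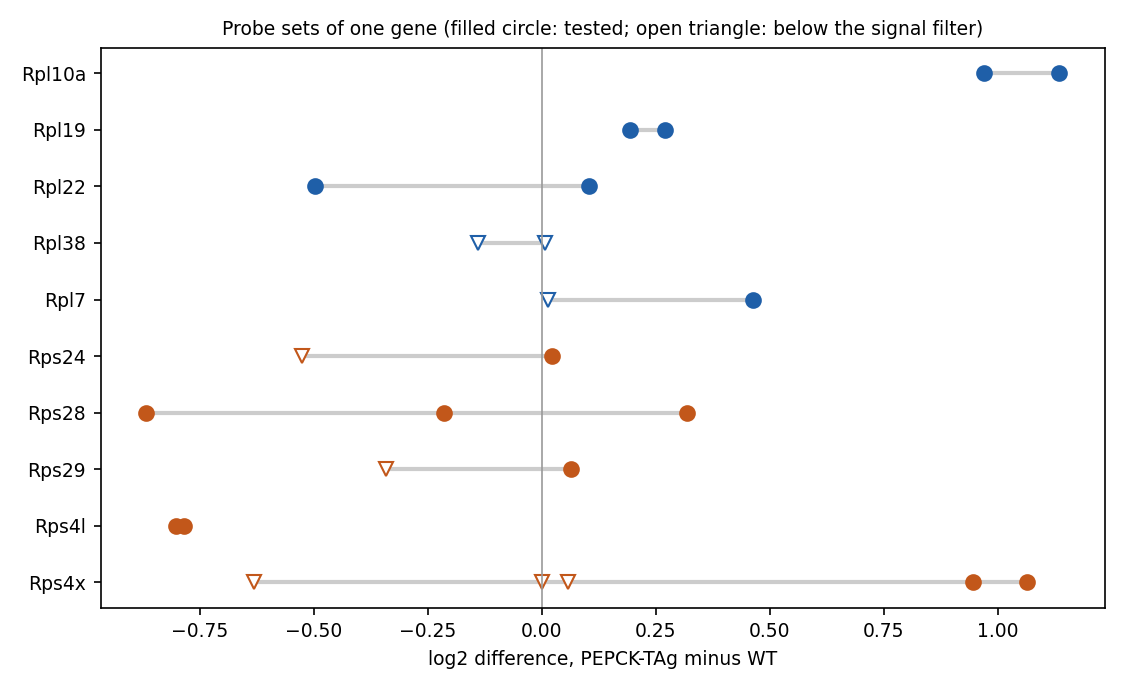
Log2 difference, PEPCK-TAg minus WT, of every probe set of the 10 ribosomal protein genes that have several (60S in blue, 40S in orange). Filled circles were tested, open triangles were below the signal filter, and grey bars join the probe sets of a gene. The tested ones of Rpl10a lie 0.16 apart and those of Rps28 span 1.19.

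The 15 untested probe sets read between 0.9 and 40.7. For 8 genes no probe set was tested: Rpl35a, Rpl38, Rpl39, Rpl39l, Rps14, Rps15, Rps20 and Rps27l. Nothing is said here about the mRNAs of these genes beyond the reading of the probe set. Rpl38, needed for normal patterning of the axial skeleton in mice, read at most 31.2, and Rps14, known in humans from the 5q- syndrome, at most 5.0. Rpl39l, a relative of Rpl39 known from the testis, read 14.5 and 15.1 on PEPCK-TAg arrays, against 4.7 and 2.5 on WT arrays. Both WT values were under the floor of 10.6 set before log2 was taken.

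Members with a high signal mostly had positive differences. Of the 20 member probe sets with a mean signal over 1000, a level chosen after the values were seen, 18 had a positive log2 difference and 2 a negative one, and their median was 0.34. Of the 14 other tested ones 8 were positive and 6 negative, with a median of 0.07, and over all 29 others, 15 of them untested, the median was -0.09. Both PEPCK-TAg arrays lay above both WT arrays in 55% of the bright members and in 19.6% of all probe sets over that signal. The bright members of the large subunit had a median of 0.28 and those of the small subunit 0.39, over 10 probe sets each. Over all probe sets, tested or not, the medians were 0.13 for the large subunit and 0.02 for the small subunit, beside 0.00 for the whole table. Over the tested probe sets alone they were 0.23 and 0.24, beside 0.05 for all probe sets tested.

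Bright probe sets of the rest of the table lay on the other side. There were 950 with a mean signal over 1000 that carried none of the ribosomal protein symbols used here. Mitochondrial ribosomal proteins stayed among them. Their median was -0.31, with 655 negative and 295 positive, and limma called 117 lower and 47 higher. Relative to the mean of the WT arrays, the bright members had medians of 0.27 on PEPCK-TAg 1 and 0.52 on PEPCK-TAg 2, with -0.08 and 0.08 on WT arrays. The other bright probe sets had -0.33 and -0.26 on the PEPCK-TAg arrays, with 0.01 and -0.01 on WT arrays. The gap between the medians of the 2 sets was 0.64, and it was 0.60 to 0.83 with an array left out and 0.72 under quantile normalization. Of the 19 alternatives 10 left it exactly as it was, and settings such as a common linear scaling or a call rule cannot move it. The position of 0 depended on the scaling: with arrays scaled to a common median, which moved the median of all probe sets tested to -0.21 from 0.05, the bright members had a median of 0.08 with 13 positive and 7 negative, and under quantile normalization the median was 0.69 with 20 positive. This set of 20 was split after the values were seen and has no test.

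**Figure D4:**
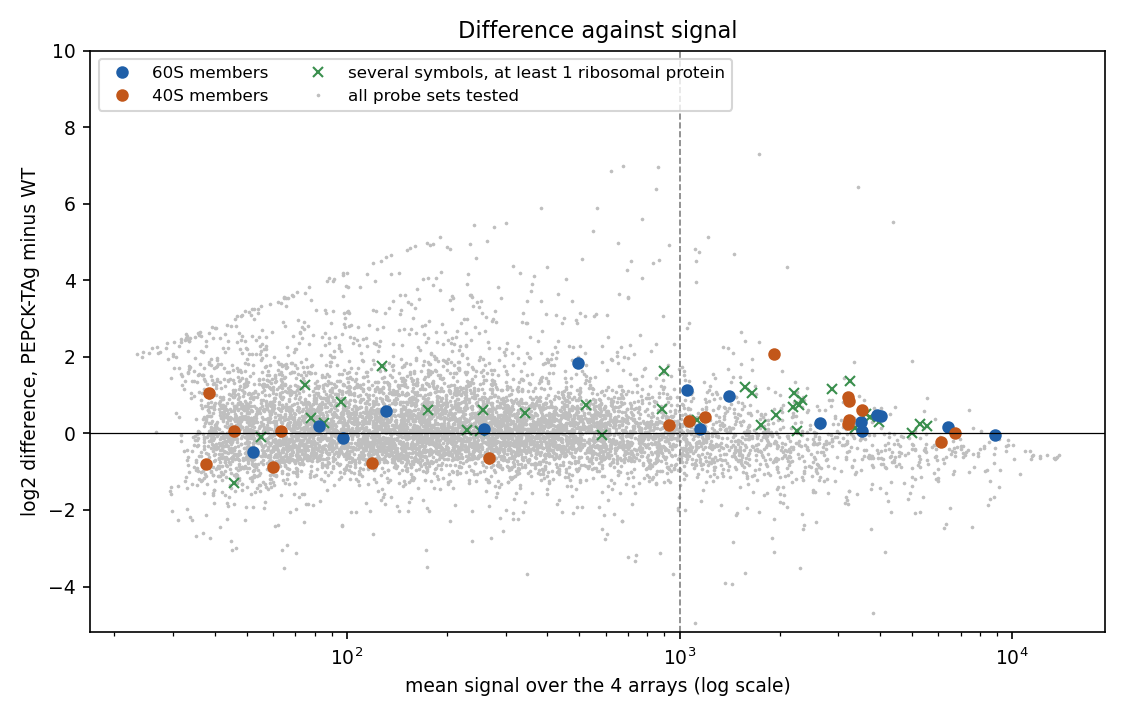
Log2 difference, PEPCK-TAg minus WT, against the mean signal over the 4 arrays (log scale) for the tested probe sets: large-subunit members in blue, small-subunit members in orange, probe sets with several symbols that include a ribosomal protein as green crosses, and all probe sets tested in grey. Right of the dashed line at 1000, 18 of 20 members are above 0, while the other probe sets have a median of -0.31.

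Under quantile normalization 8 members were called higher (23.5%), beside 7.22% of all probe sets tested in that setting, and 6 joined Rps19 and Rpl13a. They were Rps18, Rpl7 (of uncertain assignment), Rps4x, Rpl8, Rpl10a (the shared probe set) and Rplp0. In that order their limma adjusted p was 0.0168, 0.0252, 0.0339, 0.0366, 0.0476 and 0.0495. Linear scaling gives the arrays equal trimmed means, while quantile normalization gives them equal distributions. The highest percentile differed between the groups: the 99th percentile of the signals was 4014 and 4469 on PEPCK-TAg arrays and 6028 and 5835 on WT arrays.

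**Figure D5:**
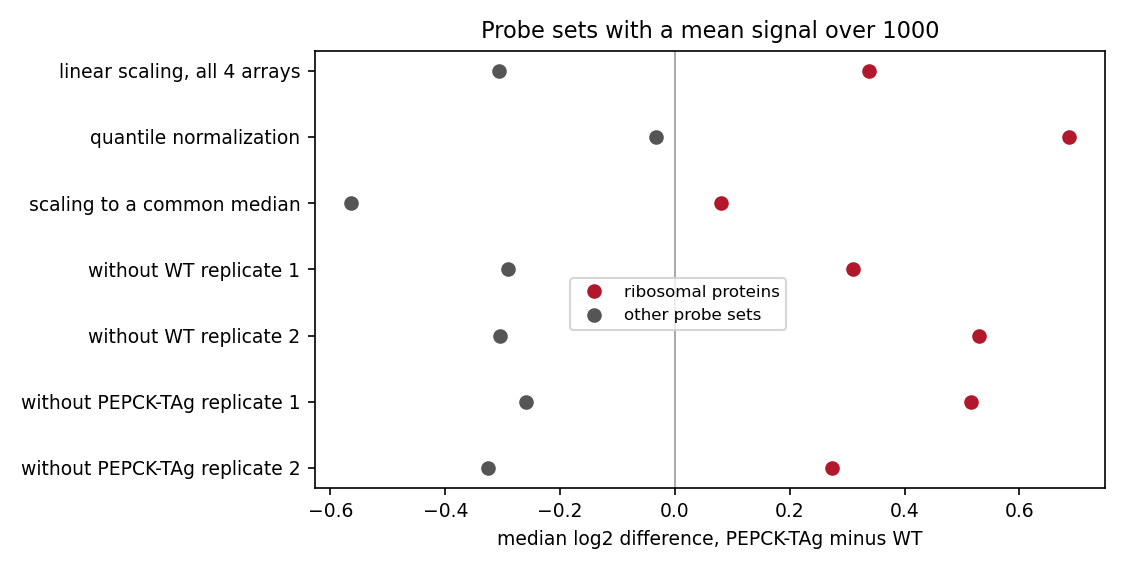
Median log2 difference, PEPCK-TAg minus WT, of the 20 ribosomal protein probe sets with a mean signal over 1000 (red) and of the 950 other probe sets above that signal (grey) under linear scaling, 2 other scalings and with each array left out. The red points range from 0.08 to 0.69 and the grey ones from -0.56 to -0.03.

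A further 39 probe sets list several symbols with at least 1 ribosomal protein among pseudogenes and relatives, and no gene is named from them. Of the 35 tested, limma called 4 higher and 0 lower, or 11.4% higher beside 9.1% in the table, and 22 had both PEPCK-TAg arrays above both WT arrays, or 62.9% beside 33.3%. Their median log2 difference over all 39 was 0.42. Signals of such probe sets may add up several transcripts.

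Related genes were read from lists of the ribosome's wider machinery. Of the mitochondrial ribosomal proteins, limma called 2 of 66 tested probe sets higher (3.03%, beside 9.1% of all tested) and 0 lower. Their median was 0.13 over all 76. Mrpl23 read 633.3 and 693.3 on PEPCK-TAg arrays, against 307.2 and 258.0 on WT arrays (log2 difference 1.23 ± 0.24 SE, limma adjusted p = 0.0226), and Mrps26 rose by 1.13 ± 0.25 SE (limma adjusted p = 0.0333). Among factors that assemble ribosomes, limma called 6 of 53 tested probe sets higher (11.3%) and 0 lower, with a median of 0.17 over all 68. Nop58 and Nop56, core proteins of the particles that methylate ribosomal RNA, rose by 2.34 ± 0.33 and 1.98 ± 0.28 SE, and Taf1d, a factor of RNA polymerase I, by 1.86 ± 0.30 SE.

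Of 15 tested probe sets of other TOP mRNAs and their relatives, limma called 4 higher (26.7%) and 0 lower, while the median over all 21 was 0.00. The list did not move as a whole: 8 of the tested probe sets had a positive difference and 7 a negative one. The calls were led by the histone chaperone Nap1l1 (2.26 ± 0.25 SE), the RNA-binding protein Hnrnpa1 (1.60 ± 0.31 SE) and the initiation factor subunit Eif3e (1.33 ± 0.27 SE). A second, untested probe set of Eif3e gave the opposite sign (-0.88). Ubiquitin fusion and ribosome-bound genes had 0 calls in limma among 3 tested, also 0 at an unadjusted p of 0.05. In the list of MYC and mTOR inputs 1 of 15 tested probe sets was called higher and 1 lower. Myc, the transcription factor, read 74.9 and 53.7 on PEPCK-TAg arrays and 9.7 and 5.5 on WT arrays, both under the floor, and was at least 5.99-fold higher. It passed the signal filter only through its PEPCK-TAg arrays, so its call supports nothing. Eif4ebp2, a repressor of translation that mTOR inactivates, fell by 1.23 ± 0.22 SE on the log2 scale (limma adjusted p = 0.0162), with -1.33 ± 0.46 SE in another probe set that did not pass.

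Summed signals of some marker lists differed between the groups, while those of the lymphocyte and endothelial lists overlapped. The summed signal of 8 hepatocyte genes was 42176 and 53264 on PEPCK-TAg arrays and 71847 and 74198 on WT arrays, and 2 of 8 probe sets fell. That of 12 erythroid genes was 11591 and 16752 on PEPCK-TAg arrays and 4155 and 4523 on WT arrays, with 10 of 13 tested probe sets higher. That of 18 myeloid genes was 10033 and 14494 on PEPCK-TAg arrays and 2089 and 2003 on WT arrays (11 of 17 higher, with Itgam and Marco below 41.3 on every array), and that of 20 division genes 18688 and 16504 on PEPCK-TAg arrays and 1967 and 1650 on WT arrays (21 of 23 higher). Lymphocyte genes summed to 428 and 366 on PEPCK-TAg arrays and 407 and 401 on WT arrays. Of their 5 tested probe sets 2 were called higher, and the other 3 had negative differences and were not called. Cd2, Cd3e, Cd3g and Cd8a were below 41.3 throughout. Endothelial genes summed to 2231 and 2503 on PEPCK-TAg arrays and 3000 and 1824 on WT arrays. Stellate and fibroblast genes summed to 2581 and 2579 on PEPCK-TAg arrays and 3334 and 3056 on WT arrays. Endothelial, stellate and bile duct lists had 1 call each, of 10, 8 and 1 tested probe sets. Some of these markers passed the signal filter only through their PEPCK-TAg arrays, both WT arrays being below it, so their calls support nothing: 3 of the 10 erythroid calls, 6 of the 11 myeloid, 9 of the 21 division, both lymphocyte calls and the endothelial and bile duct calls. The part of these cell types in the ribosomal protein values was not tested, and in bulk RNA fewer cells of a type and less RNA per cell cannot be told apart. The part of RNA quality was not tested either. The ratio of 3′ to 5′ actin controls was 3.82 and 3.14 on PEPCK-TAg arrays and 4.33 and 3.41 on WT arrays. For Gapdh controls it was 4.57 and 2.9 on PEPCK-TAg arrays and 5.35 and 3.8 on WT arrays. In both groups replicate 1 had the higher ratio for each control.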

How the data were processed

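The values are linear intensities deposited by the authors, 1 for each probe set on each array, made with MAS5 per the submitters' processing notes, whose version the sources used here do not give. Their 2% trimmed means of 250.1 to 250.2 show that all arrays had been brought to 1 level. Gene names came from the platform table where it lists 1 symbol.

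The 66 controls were removed. The deposited signals were scaled linearly to equal trimmed means, values under the 20th percentile (10.6) were set to it, and log2 was taken. Probe sets with at least 2 of 4 arrays above the 40th percentile (41.3) were tested with limma 3.58.1 in R 4.3.3 (lmFit, eBayes with an intensity trend, two-sided, Benjamini-Hochberg adjustment over 7877 probe sets). The script was tested on simulated data. Medians over members take every probe set, tested or not, and have no test. The number of arrays limits the precision.

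Members and lists were chosen with earlier results of these data known. By rule, the genes named are called members, members with several probe sets, the 3 highest and 3 lowest signals of each subunit, stalk proteins, Rpsa, paralogs with their parents, and up to 3 called genes of each list in each direction. Other members were named after their values were seen. Several-symbol probe sets and the split at a signal of 1000 were added after seeing the data. Alternatives covered scaling, floor, filter, blocks, left-out arrays and call rules. No chip lot held both groups and no correlation within lots could be estimated, so the lot cannot be told apart from the group.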

Additional observations from a re-analysis of the deposited data

How the results depend on the processing

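The count of 2 members called higher became 8 under quantile normalization, 6 with the replicate number as a block, 6 at an adjusted p of 0.1, 6 of 69 tested with the several-symbol probe sets, 1 with no filter (Rpl39l, whose WT arrays were both at the floor) and 0 when the fluidics station was a block. It ranged from 0 to 4 with an array left out, and was 0 without PEPCK-TAg 1 or PEPCK-TAg 2. The count called lower was 0 under each alternative run. Of the tested members, 17.6% were called higher with the replicate block, beside 15.7% of all probe sets tested in that setting. At an adjusted p of 0.1 the shares were 17.6% and 14.1%, and with the several-symbol probe sets 8.7% and 9.1%. Under quantile normalization they were 23.5% and 7.22%. Except under quantile normalization, the members' share in these settings was thus close to that of all probe sets tested. Among all probe sets the 717 higher and 268 lower calls became 567 and 279 under quantile normalization, 1240 and 633 with the replicate block, 1108 and 513 at an adjusted p of 0.1, 129 and 36 with no filter, 107 and 60 without PEPCK-TAg 1, and 88 and 39 without PEPCK-TAg 2. The labels do not tie equal replicate numbers of the groups together, and the main fit used no pairing. Deviations of PEPCK-TAg 1 and WT 1 from their group means correlated positively, at 0.253 over 7877 probe sets. These arrays shared a scan day, a station and a scanner type. Whether such shared variation marks a pairing was not tested. The replicate block brought in both probe sets of Rpl10a (limma adjusted p = 0.00985 and 0.0218), Rps4x (0.0192) and Rps18 (0.0280).

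The large-subunit median of 0.13 became 0.355 under quantile normalization and -0.032 with arrays scaled to a common median, and ranged from -0.012 to 0.354 with an array left out. The small-subunit median of 0.02 became -0.171 under median scaling. For bright members the median was 0.686 under quantile normalization, 0.08 under median scaling and 0.529 with scanner type as a block, and 0.273 to 0.529 with an array left out. For the other bright probe sets it was -0.033, -0.564, and -0.326 for the station block, and -0.326 to -0.26 with an array left out. Only WT 2 was read on the other scanner type, and only PEPCK-TAg 2 was on the other station. The scanner and station blocks therefore gave the same differences as leaving that array out and are not separate checks.

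Of the 34 tested members 19 kept their sign under every alternative in which they were tested, and 15, none of them called, changed it; the cause was not tested. Under quantile normalization the log2 differences that changed sign were 0.459 for Rpl41, 0.29 for Rps28 (suffix f), -0.067 for Rpl19, -0.116 for Rpl22, -0.182 for Rps13 and -0.186 for Rps29. Under median scaling they were -0.095 for Rplp0, -0.064 for Rpl19, -0.155 for Rpl22, -0.186 for Rps13, -0.154 for Rpl37a, -0.194 for Rpl6, -0.235 for Rps24, -0.03 for Rpsa, -0.193 for Rps29 and -0.003 for Rps10. For the station block they were -0.08 for Rplp0, -0.068 and -0.073 for Rpl19, -0.024 for Rpl37a, -0.165 for Rpl6, -0.14 for Rps24 and -0.054 for Rps29, and for the scanner block 0.034 for Rpl41, -0.026 for Rpl19, -0.232 for Rpl37a and -0.009 for Rps24. With an array left out the ranges were -0.413 to 0.319 for Rpl41, -1.099 to 0.831 over the 3 probe sets of Rps28, -0.08 to 0.407 for Rplp0, -0.394 to 0.15 for Rpl32, -0.073 to 0.612 over both of Rpl19, -0.122 to 0.265 for Rps13, -0.232 to 0.44 for Rpl37a, -0.191 to 0.318 for Rpl6, -0.14 to 0.186 for Rps24 and -0.077 to 0.205 for Rps29.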
